A study of Mus musculus with 12 samples.

Results

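Errfi1, Egfr and 8 further genes of the EGFR axis were examined across MC38 tumor cells, giving 10 members among the 33217 genes of the count table. Errfi1 and Egfr were chosen from measured values, because they ranked among the genes that differed between anti-PD1 and IgG in WT tumor cells. The other 8 were chosen by their place in the pathway, with earlier results of these data known. They comprise the ligands Areg, Ereg, Hbegf and Tgfa and the feedback inhibitors Lrig1, Spry2, Spry4 and Dusp6. Of the 10 members, 9 had enough counts to be tested among 14340 genes, and Tgfa was listed at 0 counts in every library.

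EGFR is a receptor tyrosine kinase of the ERBB family that is activated when a ligand shed from a neighboring or the same cell binds its extracellular domain, and it signals through RAS and ERK. The pathway limits itself: ERK signaling raises the transcription of inhibitors that act on the receptor, on RAS or on ERK. Errfi1 encodes MIG6, a cytoplasmic protein that binds the EGFR kinase domain and blocks its activity, and EGFR ligands take part in the renewal and repair of colon epithelium.

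MC38 is a mouse colon adenocarcinoma line, and the study asked how a homozygous A159V substitution in Rac1, introduced at the endogenous locus by CRISPR-Cas9, changed the tumor and its response to an antibody against PD1. Tumors were grown in young adult C57BL/6 mice that received anti-PD1 or an IgG isotype control, and tumor cells were purified with a magnetic tumor cell isolation kit before poly(A) RNA-seq. Each genotype was given each antibody, in 4 groups of 3 mice, named A159V anti-PD1, A159V IgG, WT anti-PD1 and WT IgG. The paper obtained 3 MC38 A159V clones, states that their behavior was similar, and presents a single clone unless stated otherwise. In these counts the mutation and the other properties of that clone cannot be told apart, and gene counts cannot show the substitution itself.

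Total counts ranged from 14053582 to 21949942 per library, and 3 counts, taken as the floor of detection, amounted to 0.144 to 0.201 CPM (counts of a gene relative to the library total, scaled by the trimmed mean of M-values, TMM). The cells carried few epithelial transcripts: 8 epithelial markers summed to between 1.53 and 5.90 CPM per library, and Epcam had 0 to 2 counts in every library. WT IgG replicate 1 stood apart from the other libraries of its group, with a slope of -0.226 for its deviation from the mean log2 level of all libraries on log2 exon length, against -0.085 to 0.070 in the other 11 libraries. Some other cell types remained after purification. Ptprc, the pan-leukocyte gene for CD45, had 134 to 212 counts in the WT anti-PD1 libraries and 3 to 56 in the WT IgG libraries, against 0 to 5 in the A159V libraries. Cd8a, a marker of cytotoxic T cells, had 33 to 85 counts in WT anti-PD1 and at most 6 counts in every other library.

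The 12 leukocyte markers together summed to 41.2 to 48.9 CPM in WT IgG, 56.0 to 83.3 in WT anti-PD1, 53.1 to 73.8 in A159V IgG and 54.7 to 60.9 in A159V anti-PD1. The sums of the A159V groups were carried by Cd68, with means of 40.7 and 36.9 CPM, while Cd3e, Cd8a, Nkg7, Itgam and Ptprc were at 5 counts or fewer in each of their libraries. The 9 fibroblast markers summed to 562 to 1640 CPM in the WT libraries and 234 to 312 CPM in the A159V libraries, and 5 endothelial markers reached 13.5 to 15.1 CPM in WT anti-PD1 against 5.15 to 10 CPM in the rest. These levels move with the comparisons given below, and their part in the members' differences was not tested except where a fit with a leukocyte score is given. In bulk RNA, fewer cells of a type and less RNA per cell cannot be told apart.

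**Figure D1:**
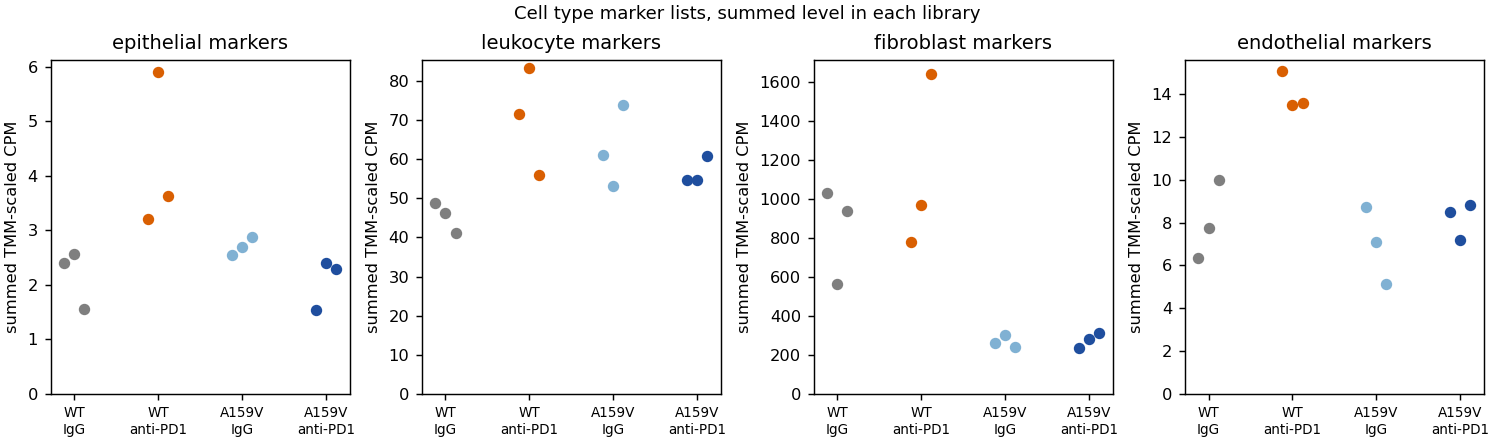
Summed TMM-scaled CPM (y axis) of each cell type marker list in every library, by group (x axis), 1 point a library. The WT anti-PD1 libraries are the highest for the epithelial and endothelial lists, and all 6 A159V libraries sit at or below 312 CPM for the fibroblast list.

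Promoter sequences are shown for Errfi1 and Egfr, the genes that chose the set, and for Areg, because Errfi1 and Areg both hold a full cyclic AMP response element. In the RefSeq promoter table of GRCm38.p6, 7 of the 10 members had an entry, covering 250 bases before and 50 bases after an annotated start. The element TGACGTCA, searched on both strands, was present in Errfi1 and Areg among these 7 and in 588 of all 32851 promoters (1.79%). The 250 bases before the start are given 5′ to 3′ with the element in capitals.
Errfi1, chr4:150854820-150855069, plus strand: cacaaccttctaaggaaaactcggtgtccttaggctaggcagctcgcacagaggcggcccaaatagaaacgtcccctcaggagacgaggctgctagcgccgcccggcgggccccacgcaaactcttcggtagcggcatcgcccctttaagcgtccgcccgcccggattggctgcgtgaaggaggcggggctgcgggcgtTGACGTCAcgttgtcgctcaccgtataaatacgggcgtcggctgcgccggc
Areg, chr5:91139349-91139598, plus strand: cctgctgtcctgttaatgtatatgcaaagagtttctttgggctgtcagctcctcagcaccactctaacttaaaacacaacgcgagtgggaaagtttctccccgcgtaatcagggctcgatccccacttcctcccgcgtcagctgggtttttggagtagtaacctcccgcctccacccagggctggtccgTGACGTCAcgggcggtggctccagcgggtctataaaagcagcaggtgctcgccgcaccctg
Egfr, chr11:16751953-16752202, plus strand: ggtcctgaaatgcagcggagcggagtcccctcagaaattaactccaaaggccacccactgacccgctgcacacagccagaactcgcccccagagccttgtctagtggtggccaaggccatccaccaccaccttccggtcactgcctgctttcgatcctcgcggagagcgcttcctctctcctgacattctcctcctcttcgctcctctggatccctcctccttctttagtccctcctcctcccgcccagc
The element began 51 bases before the start in Errfi1 and 61 bases before it in Areg. The Errfi1 window lies before the downstream of the gene's RefSeq starts, within the first intron of the longer transcript, and the window of its upstream start held no such element. None of these windows overlapped an annotated exon of its gene. The AP-1 site TGANTCA (7.81% of all promoters), the ETS site CCGGAAGT (3.89%) and the Egr1 site GCGTGGGCG (0.612%) were not found in the members' windows, whereas the GC box GGGCGG (35.7%) was found in Errfi1, Egfr, Areg, Tgfa and Lrig1. These matches describe letters in the windows and were not tested against the expression values.

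Errfi1 (ENSMUSG00000028967, chr4:150853919-150868892, plus strand, mm10) was present at 44.4, 38.7 and 36.9 CPM in WT IgG, at 89.0, 87.0 and 98.3 CPM in WT anti-PD1, at 52.3, 58.0 and 48.6 CPM in A159V IgG and at 44.6, 47.4 and 47.5 CPM in A159V anti-PD1. All 3 WT anti-PD1 libraries were above the other 9, and the 4 groups did not overlap. The means ± SD (n = 3) rose in the order WT IgG (40.0 ± 3.91), A159V anti-PD1 (46.5 ± 1.64), A159V IgG (52.9 ± 4.73) and WT anti-PD1 (91.4 ± 6.01). Neighbors among the 3 lower groups were close, since the highest WT IgG library (44.4) and the lowest A159V anti-PD1 library (44.6) nearly met. In WT tumor cells the anti-PD1 to IgG difference was 1.19 on the log2 scale (SE 0.12), and in the A159V IgG group the level was higher than in WT IgG by 0.41 (SE 0.12). Under anti-PD1 the A159V level was lower than WT by 0.98 on the log2 scale (-0.98, SE 0.12). No p is given for these 3 differences, because the WT libraries in them chose the gene.

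Egfr (ENSMUSG00000020122, chr11:16752203-16918158, plus strand) encodes the receptor and was measured at 5.79, 6.73 and 7.13 CPM in WT IgG, 14.0, 14.4 and 15.2 CPM in WT anti-PD1, 7.72, 10.6 and 6.64 CPM in A159V IgG and 9.10, 5.95 and 7.84 CPM in A159V anti-PD1. The WT anti-PD1 libraries were above all others, and the remaining 3 groups overlapped one another. Their means ± SD were 6.55 ± 0.685 for WT IgG, 7.63 ± 1.58 for A159V anti-PD1 and 8.33 ± 2.05 for A159V IgG, against 14.5 ± 0.598 for WT anti-PD1 (n = 3 each). These levels rested on 106 to 273 counts per library. The log2 difference of WT anti-PD1 from WT IgG was 1.15 (SE 0.20), that of A159V IgG from WT IgG was 0.35 (SE 0.21), and that of A159V anti-PD1 from WT anti-PD1 was -0.93 (SE 0.20), again as a description.

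Among 14340 genes ordered by p in the WT contrast, Errfi1 was at rank 1 and Egfr at rank 38. A gene was called when its adjusted p was under 0.05 and its absolute log2 fold change above 0.3, and 90 genes (0.628%) were called there. That count depended on single libraries and on the tool: it was 1 without WT IgG replicate 1, 2 without WT anti-PD1 replicate 1 or 2, 10 without WT anti-PD1 replicate 3, 22 without WT IgG replicate 2, 3458 without WT IgG replicate 4, 1474 with DESeq2 and 0 when only the WT groups were fitted. The genes just inside that limit were Nkg7 at 2.58 and Birc5 at -0.77 on the log2 scale, and those just outside were Mxd1 at 0.72 and Pimreg at -0.64. For the other members the WT difference was 0.67 for Lrig1, 0.34 for Spry4, 0.27 for Ereg, 0.27 for Hbegf, 0.13 for Spry2, -0.06 for Dusp6 and -0.11 for Areg. Of the 9 members with enough counts, 7 lay above 0, with a median of 0.27 against 0.01 over all genes tested. Only Errfi1 and Egfr had groups that did not overlap (34.6% of all genes tested). These tallies include Errfi1 and Egfr, which this contrast chose, so they are a description, and no member is given a p here.

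**Figure D2:**
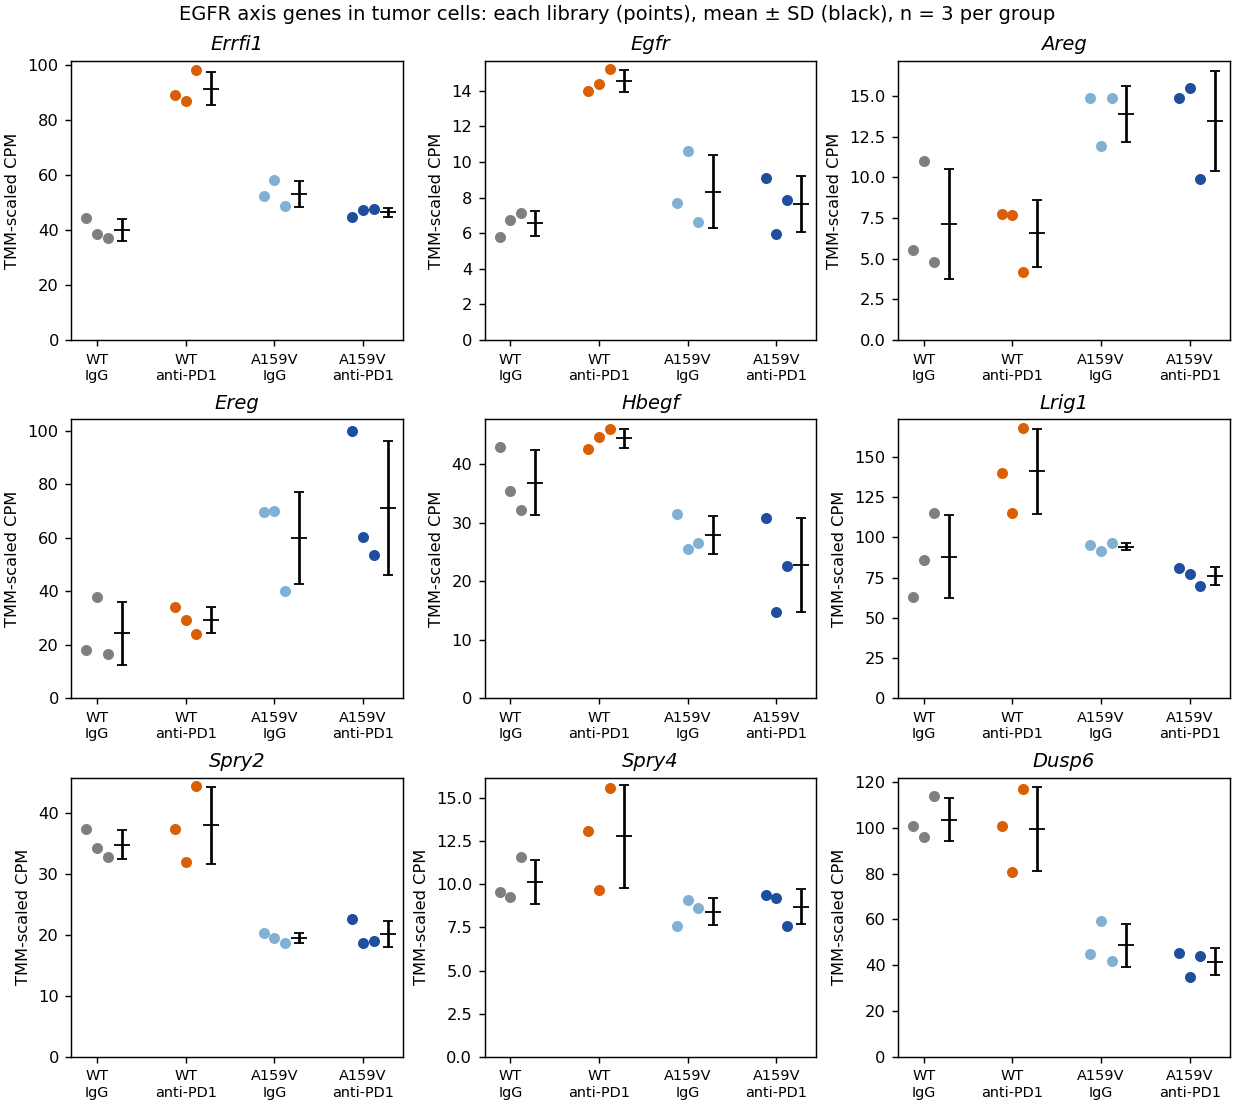
TMM-scaled CPM (y axis, from 0) of the 9 detected EGFR axis genes in each group (x axis). Colored points are the 3 libraries of a group and the black bar is their mean ± SD. Errfi1 and Egfr are highest in WT anti-PD1, at 87.0 to 98.3 and 14.0 to 15.2 CPM, whereas Areg and Ereg are higher and Spry2 and Dusp6 lower in both A159V groups.

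Per kilobase of exon, the levels of the members in WT IgG ran from 0.578 ± 0.0605 CPM per kb for Egfr to 33.1 ± 3.03 CPM per kb for Dusp6 (SD, n = 3). The inhibitors Spry2 (16.7 CPM per kb), Lrig1 (15.8) and Errfi1 (11.2) were at higher levels per length than the ligands Hbegf (7.63), Ereg (5.87) and Areg (5.86), while the inhibitor Spry4 (2.13) was below these ligands and above the receptor. In WT anti-PD1 the level of Errfi1 was 25.5 ± 1.68 and that of Egfr 1.28 ± 0.0528 CPM per kb.

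The genes whose log2 CPM followed Errfi1 most closely over the 12 libraries were Sorl1 (Pearson r = 0.923), Lgals3bp (0.92), Icos (0.918), Pdcd1 (0.917) and Pramef8 (0.913). Egfr was at rank 7 of 14339 genes, with r = 0.90. Both genes were chosen for their difference between the WT groups, so a high r between them follows in part from that choice. With a prior count of 0.5 in place of 2 for log2 CPM, Egfr was at rank 4 (0.902) and Icos left the 5 genes nearest to Errfi1. The genes nearest to Egfr were Irs2 (0.946), Pramef8 (0.944), Icos (0.936), Dusp16 (0.935) and Stom (0.93). Icos and Pdcd1 are genes of activated T cells and were at mean levels of 1.22 and 1.82 CPM in WT anti-PD1, against 0.0167 and 0.233 CPM (WT IgG), 0.0367 and 0.379 CPM (A159V anti-PD1) and 0.032 and 0.556 CPM (A159V IgG). The Icos means outside WT anti-PD1 were below the floor of 3 counts (0.144 to 0.201 CPM), so its correlations rest largely on the WT anti-PD1 libraries. The part of T cells in the levels of Errfi1 and Egfr was not tested beyond a fit with a leukocyte score, in which neither gene is given a p. In that fit 0 of 14340 genes were called for anti-PD1 in WT. The score was itself split by group (-0.95 to -0.3 in WT IgG, 0.57 to 1.09 in WT anti-PD1), so the fit cannot fully separate these cells from the treatment. All these correlations share the same libraries, and each of the named genes had its highest group mean in WT anti-PD1. After the group means were removed, r with Errfi1 was 0.02 for Sorl1, 0.72 for Lgals3bp and 0.15 for Egfr. It was 0.11 for Icos, 0.52 for Pdcd1 and 0.44 for Pramef8. The values with Egfr stayed higher, at 0.76 for Irs2, 0.74 for Pramef8, 0.78 for Icos, 0.69 for Dusp16 and 0.72 for Stom.

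The comparison of anti-PD1 with IgG in A159V tumor cells used no library of the contrast that chose the genes, so all members could be tested in it. None of the 10 members was called (9 tested and Tgfa at 0), and 0% of the 14340 genes were called by edgeR, with 521 genes (3.63%) at an unadjusted p under 0.05 and none of them a member. DESeq2 called 2 genes there, neither of them a member. The difference of Errfi1 was -0.19 on the log2 scale (95% confidence interval -0.45 to 0.07, edgeR adjusted p = 1), with the 3 anti-PD1 libraries at or below 47.5 CPM and the 3 IgG libraries at or above 48.6 CPM. The difference of Egfr was -0.13 (interval -0.57 to 0.31), and its groups overlapped. Lrig1 was at 95.1, 91.6 and 96.3 CPM under IgG and 81.1, 77.4 and 70.0 CPM under anti-PD1, a difference of -0.31 (interval -0.73 to 0.11) that did not pass the test although the groups did not overlap. Such separation was seen for 2 of the 9 members and for 11% of all genes tested. For the remaining 6 members the differences ran from -0.30 for Hbegf to 0.25 for Ereg.

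Ligands differed between genotypes in opposite directions. Areg encodes amphiregulin, a transmembrane precursor that ADAM17 releases as an EGFR ligand, and Ereg encodes epiregulin, which binds EGFR and ERBB4. These genes are neighbors on chromosome 5, Ereg at chr5:91074622-91093646 and Areg at chr5:91139599-91148432, both on the plus strand.

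Ereg was at 18.1, 38.0 and 16.6 CPM in WT IgG, against 69.7, 70.1 and 40.0 CPM for A159V IgG, and at 34.1, 29.4 and 24.2 CPM in WT anti-PD1 and 99.8, 60.2 and 53.4 CPM in A159V anti-PD1. Every A159V library was above every WT library of the same treatment, although WT IgG replicate 2 (38.0) and A159V IgG replicate 5 (40.0) were close. The log2 fold change of A159V over WT was 1.31 under IgG (SE 0.33, edgeR adjusted p = 0.0123) and 1.28 under anti-PD1 (SE 0.33, edgeR adjusted p = 0.0158). Exons of Ereg overlap the antisense gene Gm19610, and with the strand setting of the counting not stated, reads of this pair cannot be told apart.

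Areg was lower in level, at 5.52, 11 and 4.82 CPM in WT IgG against 14.9, 11.9 and 14.9 CPM in A159V IgG, and at 7.76, 7.71 and 4.18 CPM in WT anti-PD1 against 14.9, 15.5 and 9.90 CPM in A159V anti-PD1. The A159V libraries were again above the WT libraries of the same treatment. Its log2 fold change was 0.97 under IgG (SE 0.31, edgeR adjusted p = 0.0357) and 1.04 under anti-PD1 (SE 0.32, edgeR adjusted p = 0.0338). The Areg call was fragile: under IgG it was lost in 9 of 22 alternative analyses, among them those without each of A159V IgG replicates 1, 2 and 5 and WT IgG replicates 1 and 4 (edgeR adjusted p from 0.0526 to 0.132), and without WT IgG replicate 1 Ereg was lost as well (edgeR adjusted p = 0.0502). Under anti-PD1 the Areg call was lost without either of A159V anti-PD1 replicates 1 and 2 or any WT anti-PD1 library (edgeR adjusted p from 0.0521 to 0.146), and the Ereg call without A159V anti-PD1 replicate 1 or WT anti-PD1 replicates 2 or 3 (edgeR adjusted p from 0.0509 to 0.078).

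Hbegf, located on chromosome 18, encodes heparin-binding EGF-like growth factor. It was measured at 43.0, 35.4 and 32.2 CPM in WT IgG, 31.6, 25.6 and 26.6 CPM for A159V IgG, 42.7, 44.7 and 46.0 CPM in WT anti-PD1 and 30.9, 14.8 and 22.6 CPM in A159V anti-PD1. Both pairs of groups were separate, with A159V lower. The difference passed under anti-PD1 (log2 fold change -0.97, SE 0.22, edgeR adjusted p = 0.00732) and not under IgG (-0.40, SE 0.21, edgeR adjusted p = 0.177), and the difference between the treatments was not tested, since it contains the WT contrast. Tgfa (chr6:86195223-86275719), the gene for transforming growth factor alpha, was at 0 counts in all 12 libraries, as were 9515 of the 33217 genes, so no more than the floor of 3 counts per library can be stated for it. Exons of Tgfa overlap the antisense gene Gm43917, and how reads of such overlaps were counted is not stated.

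Of the inhibitors, Dusp6 and Spry2 were lower in A159V tumor cells under both treatments. Dusp6 (chr10:99263231-99267489), a phosphatase that inactivates ERK and whose own transcription follows ERK activity, was at 101, 95.9 and 114 CPM in WT IgG, compared with 44.8, 59.4 and 41.8 CPM in A159V IgG. Under anti-PD1 it was at 101, 80.7 and 117 CPM in WT and 45.5, 34.8 and 44.2 CPM in A159V. No A159V library reached the lowest WT library. The log2 fold change was -1.09 under IgG (SE 0.18, edgeR adjusted p = 0.00104) and -1.26 under anti-PD1 (SE 0.18, edgeR adjusted p = 0.000443). The paper reports higher phosphorylated ERK protein in cultured A159V MC38 cells. RNA counts from tumors do not measure ERK activity, and its relation to the Dusp6 level was not tested.

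Spry2 (chr14:105891947-105896819), a Sprouty protein that restrains RAS-ERK signaling below receptor tyrosine kinases, was also lower. Its levels were 37.4, 34.3 and 32.8 CPM in WT IgG, 20.3, 19.5 and 18.7 CPM for A159V IgG, 37.5, 32.0 and 44.5 CPM in WT anti-PD1 and 22.7, 18.7 and 19.1 CPM in A159V anti-PD1. All 6 A159V libraries were therefore at or below 22.7 CPM and all 6 WT libraries at or above 32.0 CPM. The log2 fold change was -0.84 under IgG (SE 0.14, edgeR adjusted p = 0.00149) and -0.92 under anti-PD1 (SE 0.14, edgeR adjusted p = 0.000944).

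Spry4, a second Sprouty gene, located on chromosome 18, was lower in level and did not pass. It was at 9.56, 9.24 and 11.6 CPM in WT IgG, 7.56, 9.08 and 8.61 CPM for A159V IgG, 13.1, 9.65 and 15.6 CPM in WT anti-PD1 and 9.37, 9.20 and 7.57 CPM in A159V anti-PD1. The groups were separate by small gaps under both treatments. Its log2 fold change was -0.27 under IgG (edgeR adjusted p = 0.307) and -0.56 under anti-PD1 (edgeR adjusted p = 0.0537), and the latter passed in 11 of 22 alternative analyses.

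Lrig1 (chr6:94604529-94700158, minus strand), a transmembrane protein that promotes degradation of ERBB receptors, was at 63.1, 86.1 and 115 CPM in WT IgG and 140, 115 and 168 CPM in WT anti-PD1. Its WT IgG libraries spanned the 3 A159V IgG libraries (91.6 to 96.3 CPM), and the log2 difference between genotypes under IgG was 0.10 (SE 0.19, edgeR adjusted p = 0.729). Under anti-PD1 the A159V libraries were at 81.1 CPM or below and the WT libraries at 115 CPM or above (log2 fold change -0.88, SE 0.19, edgeR adjusted p = 0.00657). Part of an Lrig1 exon overlaps the antisense gene Slc25a26, so their reads cannot be fully told apart.

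Counted over the 7 members tested between genotypes, with Errfi1 and Egfr left out, 4 were called under IgG (2 higher and 2 lower) where 28% of all genes tested were called (15.6% higher and 12.4% lower), and 6 were called under anti-PD1 (2 higher and 4 lower) where 21.4% were called (11.2% higher and 10.2% lower). Groups did not overlap for 6 of the 7 under IgG (35.8% of all genes tested) and for 7 of the 7 under anti-PD1 (56.1%). The median log2 fold change of the 7 was -0.27 under IgG and -0.88 under anti-PD1, against 0.02 and 0.06 over all genes tested. The IgG and anti-PD1 comparisons used separate mice but the same WT line and A159V cells. With a leukocyte marker score as a covariate, 2 members were called under IgG (Spry2 and Dusp6), and none under anti-PD1, where the score was 0.57 to 1.09 in WT and -1.05 to -0.91 in A159V and so was itself split by group. In that fit 1404 of all 14340 genes were called under IgG and 2 under anti-PD1.

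**Figure D3:**
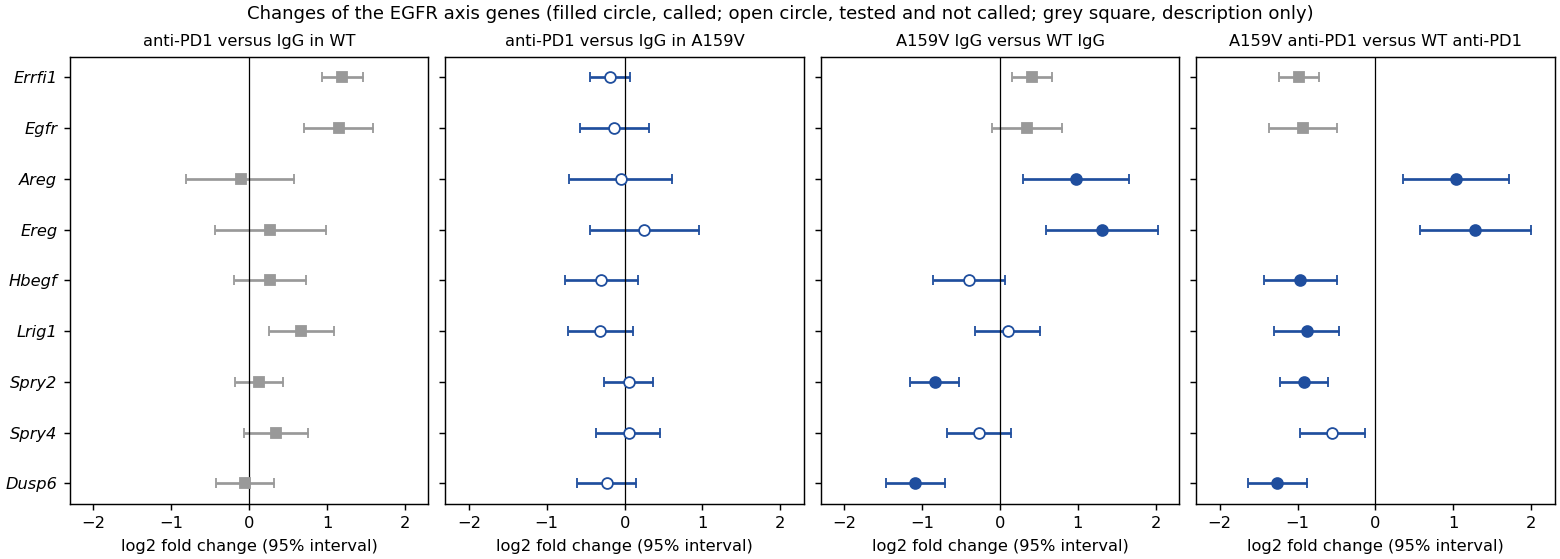
Log2 fold change (x axis) of each EGFR axis gene (y axis) in 4 comparisons, with 95% confidence intervals from the edgeR fit. Filled circles passed the call, open circles were tested and not called, and grey squares are descriptions with no test. In A159V every interval of the anti-PD1 comparison spans 0, and between genotypes Areg and Ereg lie to the right and Spry2 and Dusp6 to the left under both treatments.

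Across the 12 libraries Spry2 and Dusp6 varied together (Pearson r = 0.94, and 0.59 after group means were removed), and so did Areg and Ereg (0.87 and 0.67). The correlation of Areg with Dusp6 was -0.87 (-0.63 within groups). These values describe 12 libraries in 4 groups that share preparation and genotype, and carry no test.

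The anti-PD1 response, taken as the difference of the A159V log2 fold change from that in WT, was -1.38 for Errfi1 (SE 0.17), -1.28 for Egfr (SE 0.29) and -0.98 for Lrig1 (SE 0.27). It was -0.57 for Hbegf, -0.29 for Spry4, -0.17 for Dusp6, -0.08 for Spry2, -0.03 for Ereg and 0.07 for Areg. Thus 8 of the 9 members lay below 0, with a median of -0.29 against 0.01 over all genes tested, and these are descriptions because the WT side of the difference chose Errfi1 and Egfr.

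Other genes of the pathway were taken from lists of ERBB receptors and ligands, shedding enzymes, adaptors and the RAS-ERK cascade, receptor trafficking, further feedback inhibitors and ERK-induced transcripts, with 65 of 69 genes tested. Among receptors, Erbb2 was at mean levels of 61.0 to 71.9 CPM and was not called in any comparison. Erbb3 was at 22.4 ± 1.06 CPM in WT anti-PD1 and 13.0 ± 0.881 CPM in A159V anti-PD1 (log2 fold change -0.78, edgeR adjusted p = 0.0161), and Erbb4 was at 0 counts in all libraries. Among ligands, the neuregulin gene Nrg1 was lower in A159V under IgG (8.05 ± 2.15 to 3.55 ± 0.632 CPM, log2 fold change -1.18, edgeR adjusted p = 0.00532) and under anti-PD1 (-0.97, edgeR adjusted p = 0.0183). Betacellulin (Btc), at 1.54 CPM in WT anti-PD1 and 0.758 CPM in A159V anti-PD1, was lower as well (-1.01, edgeR adjusted p = 0.0441). Group means were at most 3.24 CPM for Egf, 3.14 CPM for Nrg2 and 1.30 CPM for Nrg4, Epgn had at most 7 counts in a library, and Nrg3 had none.

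In WT tumor cells, 1 of these 65 genes was higher after anti-PD1 (1.54%, against 0.628% of all genes tested) and none was lower. This was Dusp4, a nuclear phosphatase of ERK, which went from 63.5 ± 15.9 CPM in WT IgG to 152 ± 27.4 CPM in WT anti-PD1 (log2 fold change 1.26, edgeR adjusted p = 0.0188). An unadjusted p under 0.05 was reached by 21 genes, Dusp4 among them, which is 21 of 65 against 27.5% of all genes tested, and the median log2 difference of the 65 was 0.21 against 0.01 over all genes tested. The call of Dusp4 was lost when WT IgG replicate 1 or any WT anti-PD1 library was left out, when only the WT groups were fitted and with the leukocyte score as a covariate. In A159V tumor cells none of the 65 was called by edgeR (0% of all genes tested) or DESeq2, and 3 had an unadjusted p under 0.05 (3.63% of all genes tested).

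Between genotypes under IgG, 17 of the 65 genes were higher and 6 lower in A159V (35.4% called, against 28% of all genes tested). By smallest p, the higher genes were Stam2 of the endosomal sorting machinery (log2 fold change 0.90), the receptor phosphatase Ptprj (1.05), Dusp4 (1.22), the ERK kinase Map2k1 (0.67) and the ubiquitin ligase Cblb (0.69), with edgeR adjusted p from 0.000692 to 0.00212. The 6 lower genes were the matrix metalloproteinase Mmp9 (-2.51), the CBL-binding adaptor Sh3kbp1 (-0.77), Nrg1, Phlda1 (-0.91), Socs4 (-0.65) and Fos (-0.84, edgeR adjusted p = 0.0249). Receptor ubiquitination and trafficking was the list with the largest share called, 6 of 9 genes, of which 5 were higher.

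Under anti-PD1, 5 of the 65 were higher and 11 lower in A159V (24.6% called, against 21.4% of all genes tested). The higher genes were the ETS factor Etv4 (0.69), Map2k1 (0.60), the adaptor Grb2 (0.45), Ptprj (0.62) and the urokinase receptor Plaur (0.62). By smallest p, the lower genes were the immediate early gene Fos (-1.84), Sh3kbp1 (-1.10), Mmp9 (-3.21), Phlda1 (-0.97) and Socs3 (-0.82), with edgeR adjusted p from 0.000409 to 0.0144. The ERK-induced transcripts did not share a direction: 2 of 13 were higher and 4 lower under anti-PD1, and 3 were higher and 3 lower under IgG. Of the receptor ubiquitination and trafficking list, 1 of 9 genes was called under anti-PD1, Sh3kbp1, which was lower. Mmp9 was at 22.0 to 95.9 CPM in the WT libraries and 4.63 to 8.94 CPM in the A159V libraries, a split shared by the sum of the fibroblast markers (562 to 1640 against 234 to 312 CPM). Of the 9 markers, 6 were called lower in A159V under IgG and 6 under anti-PD1, against 12.4% and 10.2% of all genes tested. Pdgfra was not called under either treatment, and Acta2 was called higher under anti-PD1 (log2 fold change 2.2). The part of the fibroblast markers in the Mmp9 difference was not tested.

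**Figure D4:**
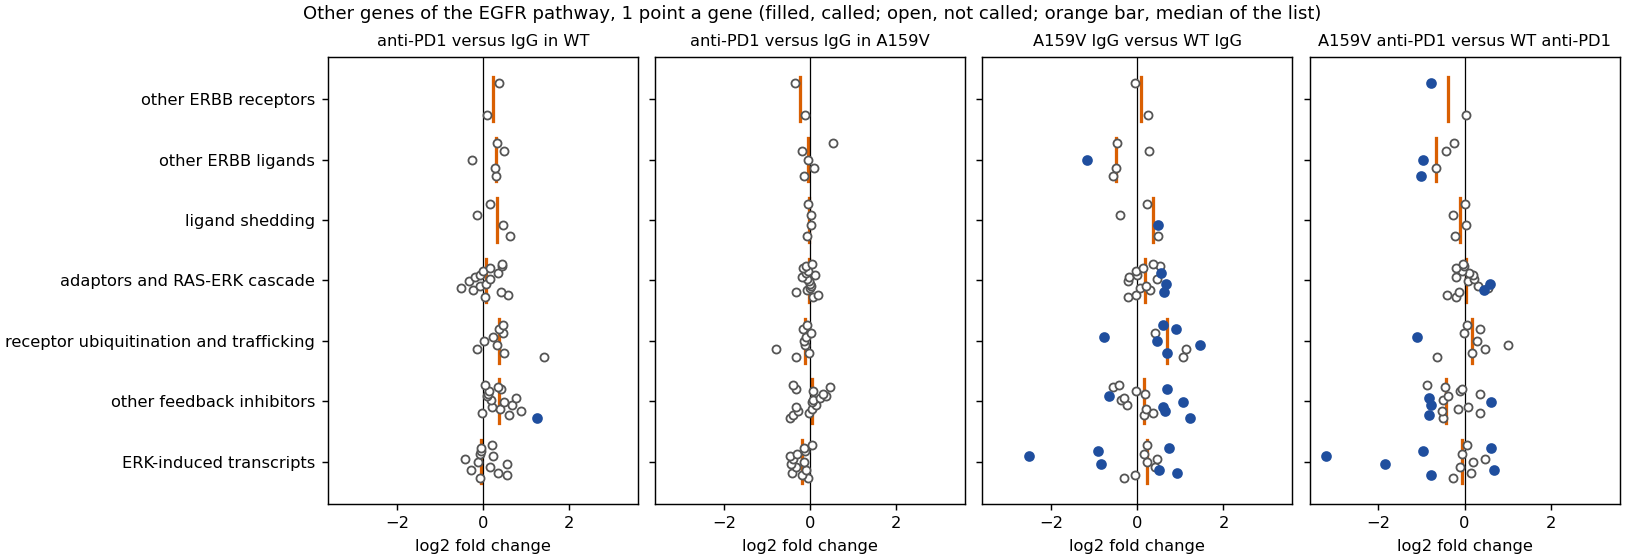
Log2 fold change (x axis) of the other EGFR pathway genes by list (y axis) in 4 comparisons, 1 point a gene. Filled points passed the call and the orange bar is the median of the list. Under IgG the receptor ubiquitination and trafficking list has 6 of 9 genes called, against 28% of all genes tested. In A159V the anti-PD1 comparison has none called in any list, and 0% of all genes tested were called there.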

How the data were processed

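Per the study's methods, the authors made poly(A) RNA-seq libraries from tumor cells of 12 mice, sequenced paired ends, aligned the reads to mm10 with STAR and counted reads per gene with summarizeOverlaps. They deposited raw counts per gene with no normalization. How overlapping features and strand were handled in counting is not given in the sources used here. Of 33219 features, 33217 were Ensembl identifiers, and 31980 of these matched GENCODE M21, which gave symbols, positions and exon lengths.

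Counts were fitted with edgeR 4.0.16 in R 4.3.3 (filterByExpr, TMM scaling, quasi-likelihood test, 4 group means over 12 samples, 8 residual degrees of freedom), with Benjamini-Hochberg adjustment over 14340 genes, and the script was tested on simulated data. Logged CPM used a prior count of 2, and log2 fold changes were those of the edgeR fit. DESeq2 1.42.0, limma-voom 3.58.1, other scalings and filters, a leukocyte score (mean log2 of CPM + 0.1 over the markers), a replicate block and leaving out each library were alternatives. An alternative that removed each sample's trend with exon length was chosen after seeing the data. Figures were drawn with matplotlib 3.10.9.

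The members, gene lists, markers and motifs were chosen with earlier results of these data known. All 10 members are named. Of the other pathway genes, the receptors and ligands and up to 5 called genes with the smallest p in each direction are named. Fos is named under IgG as well, and the 5 genes with the highest correlation are named for Errfi1 and Egfr. Depth limits and intervals cover the counting error and the spread between mice of 1 experiment only.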

Additional observations from a re-analysis of the deposited data

Results flagged for a closer look

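Errfi1 libraries separated in opposite directions in the 2 genotypes: all 3 WT anti-PD1 libraries were above all 3 WT IgG libraries, and all 3 A159V anti-PD1 libraries were below all 3 A159V IgG libraries. The WT separation restates how the gene was chosen. The A159V difference of -0.19 did not pass the edgeR test (95% confidence interval -0.45 to 0.07, adjusted p = 1), and groups were separate in that comparison for 11% of all genes tested, so no fall in A159V was established. The difference, A159V minus WT, was -1.38 on the log2 scale (SE 0.17) and was not tested, because the WT libraries in it chose the gene.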

How the results depend on the processing

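Over 22 alternatives the WT anti-PD1 difference was between 1.10 and 1.27 for Errfi1 and between 0.79 and 1.21 for Egfr on the log2 scale. These ranges are a description, because that contrast on the same libraries chose both genes. The fit with the leukocyte score, which was split between the WT groups, is among the 22 alternatives. It called 0 of 14340 genes for anti-PD1 in WT and cannot fully separate leukocytes from the treatment. The lowest Egfr value came from removing the exon-length trend of each sample, an alternative chosen after seeing the data. No member was called for anti-PD1 in A159V under any alternative. Spry2 and Dusp6 kept their calls under IgG in all 22 alternatives. Under anti-PD1, Hbegf, Lrig1, Spry2 and Dusp6 lost theirs only with the leukocyte score, at log2 fold changes of -0.73, -1.36, -1.32 and -1.34 and SEs of 0.74, 0.67, 0.49 and 0.61. With that score the anti-PD1 genotype differences were -0.38 for Areg (SE 1.05) and -0.51 for Ereg (SE 1.02), smaller than their errors. Members called between genotypes under IgG, 4 as reported, were 2 when only the groups compared were fitted (1399 of 13575 genes called) and 2 with the leukocyte score (1404 of 14340). They were 2 to 4 when a library was left out (2 without WT IgG replicate 1, 3275 of 14629), where 2578 of 14695 to 4717 of 14729 genes were called. Under anti-PD1 the 6 became 0 with the leukocyte score (2 of 14340). They became 4 to 7 when a library was left out, where 1519 of 14621 to 4134 of 14629 genes were called.

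For the other pathway genes the counts are given with those over all genes tested. The 1 called for anti-PD1 in WT (90 of 14340) became 4 with no filter (771 of 23702), 5 with DESeq2 (1474 of 13591), 0 with only the groups compared (0 of 13928), 0 with the leukocyte score (0 of 14340) and 0 to 17 when a library was left out (17 without WT IgG replicate 4, 3458 of 14646). The 23 called between genotypes under IgG became 10 with only the groups compared (1399 of 13575) and 9 with the leukocyte score (1404 of 14340). They became 15 to 27 when a library was left out (15 without WT IgG replicate 2, 2925 of 14707), over 2578 of 14695 to 4717 of 14729 genes. The 16 called under anti-PD1 became 29 with only the groups compared (5320 of 13833) and 0 with the leukocyte score (2 of 14340). They became 6 to 22 when a library was left out (6 without A159V anti-PD1 replicate 3, 1672 of 14751), over 1519 of 14621 to 4134 of 14629 genes. The cause of these shifts was not tested. Replicate numbers mark different mice, and same-numbered libraries did not deviate together (correlations from -0.18 to 0.20). Number 4 occurs only in WT IgG and number 5 only in A159V IgG, so a block for either number holds a single library. With the replicate block the pathway counts were 23 for anti-PD1 in WT (4650 of 14340) and 25 between genotypes under anti-PD1 (5018 of 14340), Spry4 passed under anti-PD1 (edgeR adjusted p = 0.0455), and the numbers do not pair the samples.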
